A study of Mus musculus with 2 samples.

Results

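Foxp3-positive regulatory T cells of the lymph nodes of mice with a transplanted heart are described here in 2 single-cell RNA libraries. The members were chosen by measured UMI counts. A cell was counted as a member if its barcode had at least 200 genes with a UMI and at most 10% of its UMIs from mitochondrial genes, at least 1 UMI of the CD3 chain genes Cd3d, Cd3e and Cd3g together, at least 1 UMI of Foxp3, and no UMI of Cd8a, Cd8b1 or Cd79a. A UMI is a molecular tag that lets copies of 1 captured RNA molecule be counted once. Of 10063 barcodes that passed the filter on genes and mitochondrial UMIs, 215 were members. The allogeneic library held 88 of them, among 2106 such barcodes, and the syngeneic library held 127, among 7957.

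In the allogeneic group a C57BL/6 donor heart was placed in a BALB/c recipient, so donor and host differ in their histocompatibility genes. In the syngeneic group donor and recipient were both BALB/c. Both groups therefore carried a heart graft and had undergone surgery, all mice were 6 to 8 weeks old, and each group is 1 library of immune cells from lymph nodes, labelled as 1 sample. How many mice contributed, which lymph nodes were taken and how long after grafting are not given in the sources used here. With 1 library per group no difference between the groups could be tested. The intervals given below, at the 95% level, cover counting error only and not the spread between mice. Those for summed UMIs also leave out the spread between cells. They can be too narrow where a few cells hold many of the UMIs of a gene.

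Regulatory T cells are CD4 T cells that hold back other lymphocytes. Foxp3 is the transcription factor that defines them; with the Ikaros family factor Helios, encoded by Ikzf2, it marks the lineage that arises in the thymus. These cells make little interleukin-2 of their own and take it up through the high-affinity receptor, whose CD25 chain is encoded by Il2ra. The assembled receptor signals through STAT5. They carry CTLA-4, which strips costimulatory ligands from antigen-presenting cells, and several receptors of the tumour necrosis factor family. In transplantation they are known for restraining the response to donor antigens. Cells that stay in lymphoid organs keep the homing receptor CCR7, while activated, so-called effector, regulatory T cells raise Icos, Tnfrsf9 and Itgae.

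Members of the allogeneic library held 324561 UMIs, with a median of 3171.5 per cell, and members of the syngeneic library held 764026, with a median of 4660. The lowest member had 1098 UMIs in the allogeneic and 3463 in the syngeneic library, and no barcode of the syngeneic table had fewer than 3447 UMIs, whereas the allogeneic table went down to 150. Detection of a gene in single cells therefore starts from a lower depth in the allogeneic library. At the upper end, 2 syngeneic members had 42811 and 30396 UMIs and together held 9.58% of the UMIs of syngeneic members. The 2 deepest allogeneic members had 14071 and 11704 UMIs and held 7.94%. Levels below are UMIs summed over the cells of a group and scaled to a total of 1000000 (CPM). A level of 0 allows up to 3 UMIs, which is 9.24 CPM over the allogeneic members and 3.93 CPM over the syngeneic members. The 2 libraries shared 66 barcodes, none of which was a member in either.

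2 allogeneic members stood apart by markers of other lineages. In 1 of them 6958 of 11286 UMIs came from the 5 erythroid markers, and in the other 3270 of 14071 UMIs came from the 6 neutrophil markers, so markers of other lineages took 61.7% and 23.6% of their UMIs. The next highest member reached 1.18%, and the highest syngeneic member 1.53%. RNA of the same kind was spread over the allogeneic members at a low level. A neutrophil marker UMI occurred in 85 of 88 allogeneic members and in 5 of 127 syngeneic members, and without the highest cell the summed level was 1147 CPM in allogeneic and 5.26 CPM in syngeneic members. An erythroid marker UMI occurred in 88 of 88 and in 25 of 127 members. The 4 natural killer markers were all at 0 in allogeneic members and summed to 1.31 CPM in syngeneic members, and the 7 B cell markers summed to 70.9 CPM and 126 CPM.

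The 4 genes that give these cells their name were checked first. Foxp3 was used to choose the members, and its level, 416 CPM in allogeneic and 251 CPM in syngeneic members, is a description only. Most members, 58 of 88 and 83 of 127, had exactly 1 Foxp3 UMI, and the highest had 6 in each library. Of the markers that the rule did not use, Ikzf2, Izumo1r (folate receptor 4) and the orphan receptor gene Gpr83, at least 1 was found in 90.9% of allogeneic members (95% exact binomial interval 82.9% to 96.0%) and in 89.8% of syngeneic members (83.1% to 94.4%). Among CD4 T cells without Foxp3, meaning cells with a Cd3 and a Cd4 UMI and no Foxp3, Cd8a, Cd8b1 or Cd79a UMI, these shares were 31.7% of 262 allogeneic cells and 34.9% of 978 syngeneic cells, at median depths of 3258 and 4442 UMIs. In both libraries the markers stood with the label. A Cd4 UMI, which the rule did not ask for, was present in 31.8% of allogeneic and 46.5% of syngeneic members.

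The threshold of 1 Foxp3 UMI cut through a population of sparse counts. Cells just inside it, with 1 Foxp3 UMI, held Ikzf2 at 315 CPM in the allogeneic and 457 CPM in the syngeneic library, and T cells just outside it, with no Foxp3 UMI but otherwise meeting the rule, held 39.7 and 59.2 CPM. For Izumo1r the cells inside held 408 and 592 CPM and those outside 112 and 145 CPM. Regulatory T cells without a captured Foxp3 molecule cannot be told apart from other T cells by this threshold. UMIs of both Ikzf2 and Izumo1r occurred in 38.6% of allogeneic and 51.2% of syngeneic members, against 3.77% and 5.52% of the T cells without Foxp3.

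The rule also set aside cells with Foxp3. Of 139 allogeneic and 319 syngeneic cells with Cd3 and Foxp3 UMIs, 34 and 91 had a Cd8a or Cd8b1 UMI, 12 and 43 a Cd79a UMI, and 5 and 58 both. Many of these rested on 1 UMI: 22 of the 34 and 44 of the 91 had a single Cd8 UMI. Their Ikzf2 level, 237 CPM in the allogeneic and 448 CPM in the syngeneic cells with Cd8, lay nearer to the members than to CD4 T cells without Foxp3. Doublets, free RNA and true Cd8 expression cannot be told apart here, and no doublet caller was run.

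A larger share of the captured T cells were members in the allogeneic library, by a count of cells in 1 library each that rests on Foxp3, the gene of the rule. Among cells with a Cd3 UMI and no Cd8a, Cd8b1 or Cd79a UMI, 88 of 831 were members in the allogeneic library, 10.6% (8.58% to 12.9%), and 127 of 1919 in the syngeneic library, 6.62% (5.55% to 7.82%). In allogeneic cells with at least the lowest UMI number of the syngeneic table, 37 of 336 were members, 11.01% (7.87% to 14.9%). With every cell thinned to 2000 UMIs the share was 8.76% of 788 allogeneic and 2.86% of 2801 syngeneic T cells, with 1662 of 2106 allogeneic and 7957 of 7957 syngeneic barcodes deep enough to be used. In the thinned syngeneic cells the denominator grew, from 1919 unthinned to 2801, as cells that lose an excluding UMI enter it. With a Cd4 UMI asked for in members, but not in the other T cells, the shares were close. They were 3.37% of 831 allogeneic and 3.07% of 1919 syngeneic T cells. Among only the T cells with a Cd4 UMI, 28 of 290 allogeneic cells were members, 9.66% (6.51% to 13.7%). In the syngeneic library 59 of 1037 were, 5.69% (4.36% to 7.28%). The allogeneic share was the higher one in each of these counts.

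Free RNA sets a background for such a share. A Foxp3 UMI was found in 0.4% of 250 allogeneic and 0.688% of 436 syngeneic B cells (a Cd79a UMI and no Cd3 UMI), which should lack the gene, at median depths of 2246.5 and 4164.5 UMIs. The share of members was above that background in both libraries. In CD8 T cells, cells with Cd3 and Cd8 UMIs and no Cd79a or Cd4 UMI, a Foxp3 UMI occurred in 4.76% of 483 allogeneic and 2.43% of 2303 syngeneic cells. In allogeneic CD8 T cells of at least the lowest syngeneic depth it was 5.09% of 334. Thinned to 2000 UMIs these shares were 2.24% and 1.10%. In each of these counts the allogeneic share of CD8 T cells was the higher one, as in members, though the intervals overlapped. Thinned to 1000 UMIs it was 0 of 274 allogeneic cells and 0.463% of 2161 syngeneic cells. The allogeneic 0 allows up to 1.09%, so the order at that depth cannot be told. Shares of cells in 1 library each depend on which cells were captured, and the libraries differed in depth and in neutrophil and erythroid RNA; the part of these in the share was not tested.

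**Figure D1:**
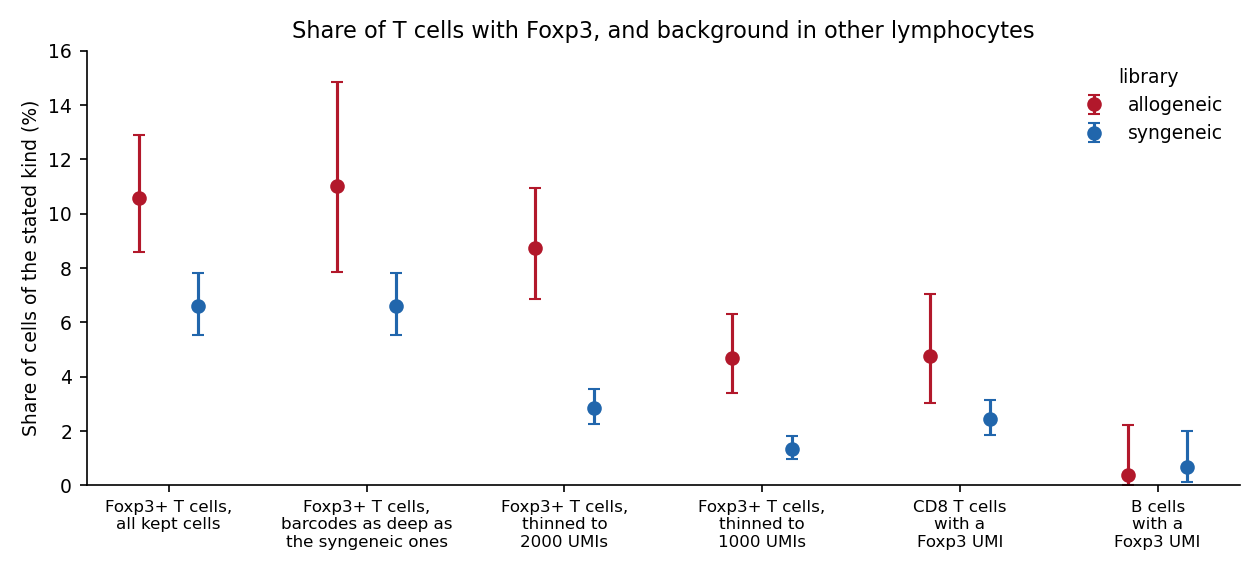
Share of T cells (percent, vertical axis) with a Foxp3 UMI in the allogeneic (left of each pair) and syngeneic library, as counted, in cells of matched lowest depth and after thinning to 2000 or 1000 UMIs, with CD8 T cells and B cells as comparison. Bars on the points are 95% exact binomial intervals, and the allogeneic share is the higher one at each of the 4 depths, at 10.6% against 6.62% as counted.

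The next question was which genes the members carried that CD4 T cells without Foxp3 of the same library did not. A gene was compared if both sums together held at least 20 UMIs, and was called if it differed more than 2-fold with an interval that excluded equality. In the allogeneic library 266 of 6226 genes were higher in members, 4.27%, and 141 were lower, 2.26%, which is 6.54% either way. In the syngeneic library 454 of 9072 were higher, 5%, and 184 were lower, 2.03%, which is 7.03% either way. The choice of members by Foxp3, and of the other cells by Cd4, used this contrast, so these counts describe the 2 groups and support nothing. Over the 6140 genes compared in both libraries, 80 were called higher in both, which is 31.0% of the 258 called in the allogeneic and 42.3% of the 189 called in the syngeneic library, and 33 were called lower in both. Scaling by the median of gene ratios in place of the total moved all log2 differences down by 0.08 in the allogeneic and 0.10 in the syngeneic library, and gave 204 higher and 181 lower genes in the allogeneic and 380 higher and 244 lower genes in the syngeneic library. CPM without haemoglobin, mitochondrial and ribosomal protein genes gave 201 and 181, and 377 and 244.

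The interleukin-2 receptor genes were among those higher in members of both libraries. Il2ra, the CD25 chain, was at 73.9 CPM in allogeneic members (47.4 to 110 by the exact Poisson interval) and 11.5 CPM in the CD4 T cells without Foxp3, a difference of 2.68 on the log2 scale. In the syngeneic library it was at 140.1 CPM in members (115 to 169) and 13.5 CPM in CD4 T cells without Foxp3, 3.38 higher in log2. Il2rb, the chain that carries the signal, was 2.51 and 2.47 higher in log2, whereas the common chain Il2rg, at 354 and 292 CPM in members, was within 0.13 of CD4 T cells without Foxp3 in both libraries. Cish, a target of STAT5 that limits cytokine signals, was 2.31 and 2.15 higher. Pim1, a STAT5-driven kinase, was 1.29 and 1.55 higher. Of 13 genes listed for interleukin-2 and STAT5, 6 were called higher in each library and none lower.

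Receptors that costimulate or inhibit T cells were also higher in members. Of 17 listed, 8 of 15 compared genes were called higher in the allogeneic and 7 of 15 in the syngeneic library, and none lower. Ctla4 was at 416 CPM in allogeneic members and 70.2 CPM in CD4 T cells without Foxp3, and at 98.2 CPM in syngeneic members and 6.01 CPM in their counterparts, so the log2 difference was 2.57 in the allogeneic and 4.03 in the syngeneic library. Tnfrsf4 (OX40) was at 438 against 95.3 CPM, and 575 against 61.5 CPM. Tnfrsf9 (4-1BB), a mark of recent stimulation, was at 108 against 6.28 CPM, and 144 against 20.5 CPM. Icos, a CD28 relative, was 2.67 and 2.25 higher in log2, and Tnfrsf18 (GITR), which conventional T cells also carry, 1.44 and 1.63 higher. A gene that is low in the other cells can pass the 20 UMI filter only through the members, so a count over those compared describes them and no more.

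Among transcription factors of the lineage, Ikzf2 was at 382 CPM in allogeneic members and 19.9 CPM in CD4 T cells without Foxp3, and at 560.2 CPM in syngeneic members and 48.7 CPM in CD4 T cells without Foxp3. Its relative Ikzf4 (Eos), a partner of Foxp3 in gene silencing, was at 64.7 against 11.5 CPM, and 41.9 against 6.63 CPM. Maf, a factor of interleukin-10 producing T cells, was 1.68 and 1.52 higher in log2. Of the listed factors other than Foxp3, 5 of 26 were called higher and 2 lower in the allogeneic library, and 5 of 27 higher and 3 lower in the syngeneic library. Their median log2 differences were 0.10 and 0.05.

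Surface and adhesion genes followed. Itgae (CD103), the integrin that binds epithelial E-cadherin, was at 89.4 against 8.38 CPM in the allogeneic and 65.4 against 5.8 CPM in the syngeneic library. Nrp1, neuropilin-1, was 3.44 and 2.88 higher in log2. Ccr6, the receptor for the chemokine CCL20, was 2.267 and 2.0001 higher, but syngeneic members held it at 74.6 CPM and syngeneic B cells at 166 CPM. Capg, an actin-capping protein gene, was 1.40 and 1.79 higher, at 305 and 474 CPM in members, and B cells held it at 154 and 384 CPM. Rgs1, a brake on chemokine receptor signals, was 2.07 and 3.17 higher. Tiam1, an exchange factor for the GTPase Rac, was 2.25 and 2.40 higher, and Cmtm7, a membrane protein gene that B cells held at 91.7 and 184 CPM, was 1.77 and 2.14 higher. Of the 23 genes listed as the regulatory T cell signature, Foxp3 was not counted and some were too sparse. In what was left, 16 of the 16 compared were called higher in the allogeneic library. The median log2 difference was 2.50, beside 0.08 over all genes. In the syngeneic library 19 of 20 were called higher, with a median of 2.65 beside 0.10. A signature gene that is low in the other cells can also pass the filter only through the members. These counts and medians therefore describe the genes that passed and no more.

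Genes of suppressor function were uneven. Tgfb1 differed little, at 129 against 131 CPM in the allogeneic and 181 against 129 CPM in the syngeneic library. Nt5e (CD73), an enzyme that makes adenosine, was at 77.0 against 9.43 CPM in the allogeneic library and at 15.7 against 8.91 CPM in the syngeneic library, where the interval of the ratio included equality. Gzmb, granzyme B, rested on few cells: 15 UMIs in 3 allogeneic members and 87 UMIs in 9 syngeneic members, or 46.2 against 6.28 CPM and 114 against 0.829 CPM. Il10 was found in 2 allogeneic members, with 4 UMIs, and in 0 syngeneic members. Lrrc32 (GARP), which docks latent transforming growth factor beta, was at 18.5 against 6.28 CPM with an interval that included equality, and at 26.2 against 0.622 CPM in the syngeneic library. Of 18 listed suppressor genes, 5 of 8 compared were called higher in the allogeneic and 6 of 12 in the syngeneic library, and 1 was lower in each. The same limit of the filter holds for these counts, which describe the genes that passed and no more.

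Genes lower in members included several of resting conventional T cells. Igfbp4 was at 126 CPM in allogeneic members and 639 CPM in CD4 T cells without Foxp3, and at 145 CPM in syngeneic members and 591 CPM in CD4 T cells without Foxp3. Dapl1 was 2.28 lower in log2 in the allogeneic and 1.87 lower in the syngeneic library, with member levels of 49.3 and 143 CPM against 239 and 523 CPM. Pdlim4, an adaptor of the actin skeleton, was at 15.4 against 82.7 CPM, and 18.3 against 126 CPM. The factors of naive T cells Tcf7 and Lef1 were lower too, with log2 differences of -1.42 and -1.02 for Tcf7 and of -0.89 and -1.24 for Lef1. Satb1, a chromatin organiser, was called lower only in the allogeneic library, at -1.07, against -0.46 in the syngeneic library, where its interval also excluded equality. The homing receptor gene Ccr7 differed by -0.32 and -0.65.

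Ccl5, a chemokine of memory and cytotoxic T cells, was lower in members, at 15.4 against 119 CPM in the allogeneic and 62.8 against 218 CPM in the syngeneic library. With every cell that had Cd3 and Foxp3 UMIs taken as a member, Cd8 or not, the syngeneic log2 difference was 0.0077, against -1.80 by the rule. The type I interferon genes did not set members apart: of 50 listed genes in the files, 2 of 45 were called higher and 1 lower in the allogeneic library, and 1 of 44 higher and 2 lower in the syngeneic library.

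**Figure D2:**
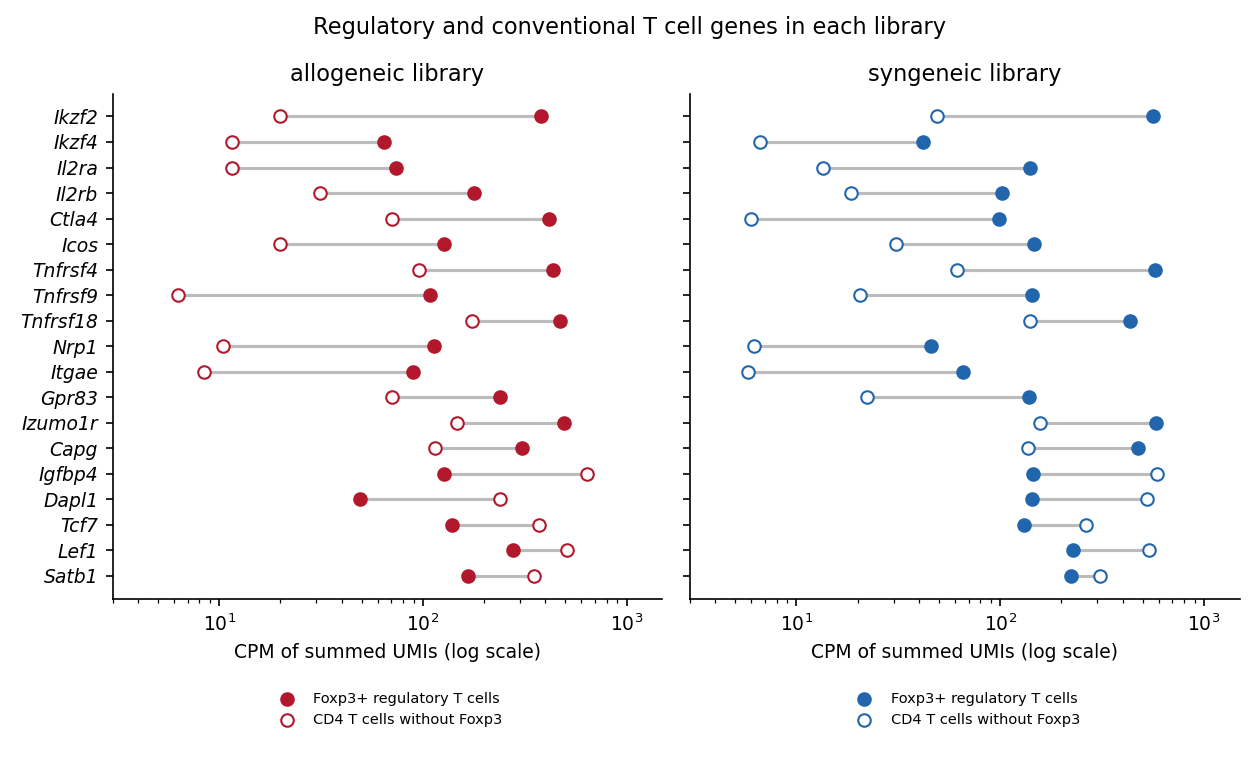
Level of 19 genes in CPM (horizontal log axis) in members (filled points) and CD4 T cells without Foxp3 (open points) of the allogeneic and syngeneic library; each point is a sum over cells of 1 library. Ikzf2 lies at 382 against 19.9 CPM and 560.2 against 48.7 CPM, while Igfbp4, Dapl1, Tcf7, Lef1 and Satb1 are lower in members.

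Members were not alike among themselves. In both libraries cells with 2 or more Foxp3 UMIs held more of the activation receptors than cells with 1. Icos was at 263.9 CPM in allogeneic members with 2 or more Foxp3 UMIs and 44.3 CPM in those with 1, and at 211 and 102 CPM in the syngeneic library. Tnfrsf4 was 1.54 and 1.04 higher in log2, and Itgae 1.67 and 2.19 higher. Ikzf2 differed less, by 0.65 and 0.64. The groups also differed in depth: the median was 2852.5 UMIs in allogeneic members with 1 Foxp3 UMI, 3587 with 2 and 3860 with 3 or more, and 4556, 4479 and 5485.5 in the syngeneic library. The part of depth in the split was not tested.

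Dapl1 ran the other way. In the allogeneic library it was at 192 CPM in T cells with no Foxp3 UMI, 63.9 CPM with 1, 25.4 CPM with 2 and 23.5 CPM with 3 or more, and in the syngeneic library at 519.6, 206, 71.0 and 17.3 CPM. Igfbp4 likewise was at 543, 138, 114 and 94.2 CPM in the allogeneic and at 568, 179.5, 112 and 69.2 CPM in the syngeneic library. For both genes members with 1 Foxp3 UMI lay between T cells without it and the cells with more. Tnfrsf4, Tnfrsf18 and Icos were highest in cells with 2 Foxp3 UMIs and not in those with 3 or more, which were only 10 allogeneic and 14 syngeneic cells.

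**Figure D3:**
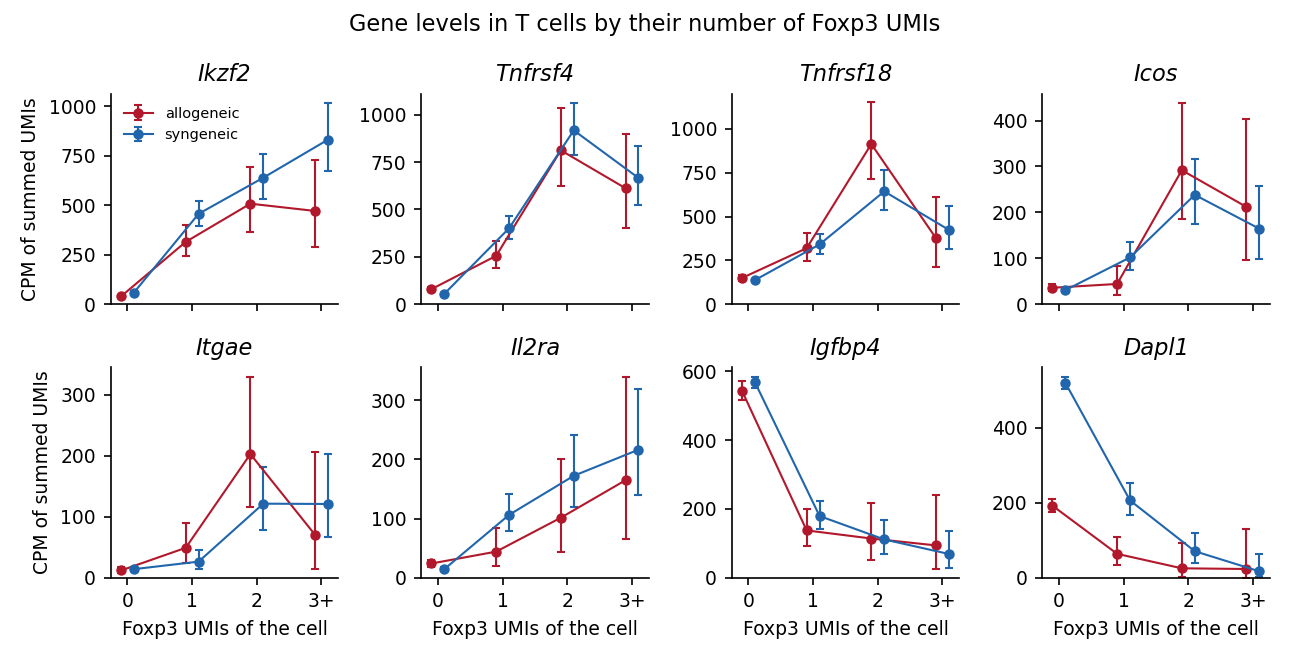
Level in CPM (vertical axis) of 8 genes in T cells with 0, 1, 2 and 3 or more Foxp3 UMIs (horizontal axis) in the allogeneic and syngeneic library, with 95% exact Poisson intervals over the summed cells. Dapl1 and Igfbp4 are highest in cells without Foxp3, and Ikzf2 lies at 39.7 and 59.2 CPM in cells without Foxp3 and at 471 and 831 CPM in cells with 3 or more Foxp3 UMIs.

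A split by Ikzf2 separated 49 members with it from 39 without in the allogeneic library, and 80 from 47 in the syngeneic library, at like depth (medians of 3156 and 3253 UMIs, and of 4715 and 4556 UMIs). Members with Ikzf2 held more Tnfrsf9, with a log2 difference of 1.93 in the allogeneic and 2.40 in the syngeneic library. They also held more Icos, by 1.93 and 1.40, and more Itgae, by 1.92 and 2.08. Not all genes listed for effector regulatory T cells went this way. In the allogeneic library S100a6 was lower in members with Ikzf2, by -0.99 (-1.30 to -0.68), and Ly6a by -0.90 (-1.46 to -0.36). Igfbp4 was lower in members with Ikzf2, by -1.98 and -2.46, and Dapl1 by -4.25 and -2.99. The allogeneic Dapl1 value rests on 1 UMI in the 49 members with Ikzf2 and 15 UMIs in the 39 without (-9.65 to -1.55). Members without an Ikzf2 UMI held Dapl1 at 105 and 352 CPM, and CD4 T cells without Foxp3 held it at 239 and 523 CPM. Lgals1 (galectin-1), a secreted lectin of activated cells, was 1.83 and 1.82 higher with Ikzf2.

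The graft comparison set allogeneic over syngeneic members. Of 5729 genes with at least 20 UMIs, 481 were higher in allogeneic members, 8.4%, and 315 were lower, 5.5%, with a median log2 difference of 0.03. In CD4 T cells without Foxp3, 784 of 9192 were higher, 8.53%, and 302 lower, 3.29%. The genes with the highest ratios were neutrophil and acute-phase genes and came largely from 1 barcode: 1962 of 2129 UMIs of S100a8, 862 of 903 of Saa3, 172 of 194 of Ngp and 146 of 154 of Lcn2. S100a8 was at 551 CPM in allogeneic members even without the barcodes that stood apart, against 2.62 CPM in syngeneic members, and it was at 683 against 68.1 CPM in B cells and 6323 against 11.9 CPM in CD8 T cells. Without the 2 barcodes 488 genes were higher and 272 lower, of 5661. The balance of directions depended on the members: with 2 or more Foxp3 UMIs asked for, 225 genes were higher and 300 lower.

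The lineage genes of regulatory T cells showed no common direction between the grafts. Of 18 signature genes compared, 4 were higher and 1 lower in allogeneic members, with a median log2 difference of -0.02. Ikzf2 was lower by -0.55, at 382 CPM in allogeneic and 560.2 CPM in syngeneic members, and Il2ra by -0.92, at 73.9 and 140.1 CPM. Gpr83 was 0.79 higher, at 240.3 and 139 CPM, and Nrp1 1.32 higher, at 114 and 45.8 CPM. Izumo1r, Icos, Tnfrsf9 and Tnfrsf18 had intervals that included equality. Tnfrsf1b, the receptor TNFR2, was 1.14 higher, at 89.4 and 40.6 CPM.

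Ctla4 was higher in allogeneic members. It was at 416 CPM (349 to 492) in allogeneic and 98.2 CPM (77.2 to 123) in syngeneic members, a log2 difference of 2.08 (1.67 to 2.51). A Ctla4 UMI was found in 62.5% of 88 allogeneic and 26.0% of 127 syngeneic members, and after thinning to 2000 UMIs in 44.6% of 83 and 11.02% of 127, with 5 allogeneic cells left out. B cells, as background, had a Ctla4 UMI in 1.6% and 0.917%. CD4 T cells without Foxp3 differed in the same direction, by 3.55 in log2, at 70.2 and 6.01 CPM, and CD8 T cells held 38.5 and 5.9 CPM. Without the barcodes that stood apart the difference in members was 2.19, and in allogeneic cells of at least the lowest syngeneic depth it was 2.197. Nt5e was 2.29 higher, at 77.0 and 15.7 CPM, though from 25 and 12 UMIs.

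Type I interferon genes were higher in allogeneic members as a group. Of 54 listed genes, 50 were in the files and 41 were compared, and 25 of these were called higher and 0 lower, with a median log2 difference of 1.24; in CD4 T cells without Foxp3 the count was 29 of 47, with a median of 1.16. The UMI filter takes both sums together, so a gene can pass it through the group where it is high. With at least 1 UMI asked for, 29 of 49 genes were higher and 0 lower in allogeneic members, with a median of 1.27. After thinning to 2000 UMIs 11 of 25 genes were higher in allogeneic members, with a median of 0.91. At 1000 UMIs it was 0 of the 5 genes left, with a median of 0.05. The rule was applied again to the thinned cells, so these are not all the same members. It gave 69 allogeneic and 80 syngeneic members at 2000 UMIs, and 41 and 45 at 1000 UMIs. Ifit3, an antiviral effector, was at 194 CPM in allogeneic and 23.6 CPM in syngeneic members. Ifit1, which binds viral RNA, was at 280.4 and 44.5 CPM, and Irf7, a transcription factor of the interferon response, at 219 and 41.9 CPM. Isg15, a ubiquitin-like modifier, was at 256 and 115 CPM, 1.15 higher in log2, and this was -0.12 after thinning to 2000 UMIs. Not every listed gene was higher: Ifi27l2a was at 2009 and 1920.1 CPM.

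Genes listed for interferon-gamma gave 6 of 24 higher, with a median of 0.42, but the direction turned after thinning. The median was -0.13 over 18 genes at 2000 UMIs and -0.22 over 9 genes at 1000 UMIs. Both are over members chosen again after thinning, and the part of that choice was not tested. Gbp7, a guanylate-binding protein gene, was at 299 and 140.1 CPM, while the immunoproteasome subunits Psmb8 and Psmb9 were lower in allogeneic members, by -0.34 and -0.61. Apobec3, a cytidine deaminase that restricts retroviruses, was at 302 and 34.0 CPM, with CD4 T cells without Foxp3 at 212 and 26.7 CPM.

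Genes known to be induced by glucocorticoids had the largest median of the 18 lists. Of 12 listed genes 9 were compared, and 8 were called higher and 0 lower in allogeneic members, with a median log2 difference of 2.60. The UMI filter takes both sums together, so a gene can pass it through the group where it is high. With at least 1 UMI asked for, 10 of 12 were called higher and 0 lower, with a median of 2.75. Tsc22d3 (GILZ), which binds and blocks NF-kB, was at 601 CPM in allogeneic and 75.9 CPM in syngeneic members. Txnip, an inhibitor of thioredoxin and glucose uptake, was at 1356 and 188 CPM. Fkbp5, a chaperone of the glucocorticoid receptor, was at 111 and 18.3 CPM, Klf9 at 117 and 14.4 CPM, and Pik3ip1, which dampens phosphoinositide 3-kinase, at 576 and 99.5 CPM. The same held outside the members: 10 of 11 were higher in CD4 T cells without Foxp3, and Tsc22d3 was at 1015 and 61.2 CPM in B cells. The receptor gene itself, Nr3c1, was at 176 and 52.4 CPM in members, and at 75.4 and 59.7 CPM in CD4 T cells without Foxp3.

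Immediate early genes, which T cells switch on within minutes of a signal, gave 6 of 15 higher and 0 lower, with a median of 1.11. Once the barcodes that stood apart were left out it was 5 of 14, with a median of 0.83. Of 22 listed genes the others had too few UMIs, and a gene can pass the filter through the group where it is high. With at least 1 UMI asked for, 6 of 19 were higher and 0 lower, with a median of 1.14. Without cycling cells the median was 0.43, with 5 of 13 higher. Cd69, which keeps cells in lymphoid tissue, was at 474 and 95.5 CPM, Junb at 666 and 267 CPM, and Dusp1, a phosphatase of kinase cascades, at 231 and 17.0 CPM. Of the 75 allogeneic Dusp1 UMIs 25 came from 1 barcode, and without the barcodes that stood apart its level was 164 CPM. Socs3, a brake on cytokine signals, was at 327 and 47.1 CPM. NF-kB genes gave 5 of 13 higher, and Nfkbia, the inhibitor induced by NF-kB itself, was at 1035 and 403 CPM. In B cells Cd69 was at 113 and 39.9 CPM and Dusp1 at 119 and 4.63 CPM, so the direction was the same in cells of another kind.

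Il7r, the interleukin-7 receptor of resting T cells, was at 385 CPM in allogeneic and 120.4 CPM in syngeneic members, 1.68 higher in log2, and 1.20 higher in CD4 T cells without Foxp3. Klf2, which keeps T cells circulating, was 0.60 higher. Of 14 genes of resting, central regulatory T cells 1 was higher and 1 lower.

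**Figure D4:**
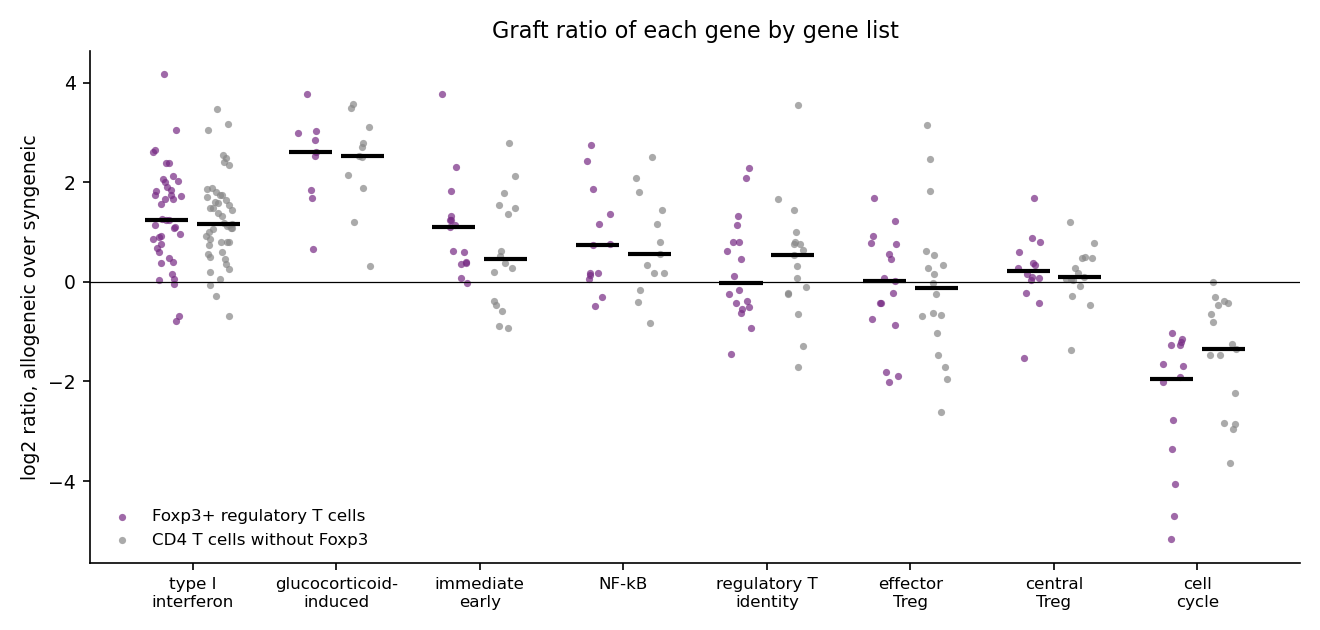
Log2 difference, allogeneic over syngeneic (vertical axis), for each gene of 8 lists in members (purple, left) and CD4 T cells without Foxp3 (grey, right), with a bar at the median; genes at 0 in 1 library are not drawn. The glucocorticoid list has medians of 2.60 and 2.52 and the type I interferon list 1.24 and 1.16, while the cell cycle list lies below 0.

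Cell cycle genes were lower in allogeneic members, from few cells. All 16 of the compared genes, of 17 listed, were called lower, with a median log2 difference of -1.96; in CD4 T cells without Foxp3 it was 9 of 17, with a median of -1.35. Most of these genes reached 20 UMIs through the syngeneic members, the group where they were high, so the count and the median describe the genes that passed and no more. Without cycling cells 0 of 8 genes were called, with a median of -0.41. After thinning to 2000 UMIs, with members chosen again, 0 of 7 genes were called, with a median of -0.51. Stmn1, a regulator of microtubules, was at 6.16 and 223 CPM, and Mki67, the Ki-67 antigen of dividing cells, had 1 UMI in allogeneic and 61 UMIs in syngeneic members. By at least 2 UMIs of 7 cycle genes, 2 of 88 allogeneic members were cycling, 2.27% (0.276% to 7.97%), and 11 of 127 syngeneic members, 8.66% (4.403% to 14.97%), so the intervals overlapped. Among allogeneic members of at least the lowest syngeneic depth it was 2 of 37, 5.41% (0.661% to 18.2%). After thinning to 2000 UMIs the shares were 2.90% of 69 allogeneic and 6.25% of 80 syngeneic members, chosen again. 3 syngeneic cells held 246 of the 337 cycle UMIs. Without cycling cells H2afz, a histone variant gene, differed by -0.32 in place of -1.03, Tuba1b, a tubulin gene, by -0.74 in place of -1.65, Tubb5 by -0.40 in place of -1.21, and Hmgb2, a chromatin protein gene, by 0.39 in place of -1.15. For these 4 genes the size or direction of the difference thus depended on the 2 allogeneic and 11 syngeneic cycling members.

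Lgals1 was at 289.6 CPM in allogeneic and 1067 CPM in syngeneic members, a log2 difference of -1.88, and -1.95 in CD4 T cells without Foxp3. It was found in 18 of 88 and 69 of 127 members, and B cells held 15.3 and 131 CPM. Of the 815 syngeneic UMIs 208 came from 1 cell, and without cycling cells the level was 178 and 610.1 CPM. Id3, an inhibitor of E-protein factors that resting regulatory T cells express, was at 55.5 and 159.7 CPM. Fabp5, a fatty acid carrier gene, was at 30.8 and 182 CPM. Klrg1, a receptor of terminally differentiated cells, was found in 2 allogeneic and 11 syngeneic members, at 12.3 and 43.2 CPM. Of the 16 listed cytotoxic genes 6 were compared and 3 were lower, among them Gzmb. Gzmb had 15 UMIs in allogeneic and 87 UMIs in syngeneic members. A gene can pass the UMI filter through the group where it is high, so this count describes the genes that passed and no more. The median log2 difference over the 6 genes was -1.16. With at least 1 UMI asked for it was 0.33 over 16 genes, and 3 were called lower.

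Few genes were called as differing between the grafts otherwise in members than in CD4 T cells without Foxp3. For 2304 genes with at least 20 UMIs in each of the 4 sums, the log2 graft difference of the members was set minus that of the CD4 T cells without Foxp3. A gene was called if this was past 1 either way with an interval that excluded equality. That gave 43 genes above, 1.87%, and 27 below, 1.17%, with a median of 0.04 over all. Intervals are wide for genes near 20 UMIs, so a gene that was not called may still differ. None of the 27 compared type I interferon genes and none of the 5 compared glucocorticoid genes was called either way, with medians of 0.11 and 0.39. Of 9 signature genes compared, 0 were called above and 3 below, with a median of -0.39. This difference is a measure from 1 library per group and was not tested.

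Among the genes below were several that mark the members themselves. Ctla4 was -1.46 (-2.21 to -0.71), since its log2 graft difference was 2.08 in members and 3.55 in CD4 T cells without Foxp3. Rgs1 was -1.11, with 0.67 in members and 1.78 in CD4 T cells without Foxp3. Tnfrsf4 was -1.02 (-1.46 to -0.59): it was lower in allogeneic members, by -0.39, and higher in allogeneic CD4 T cells without Foxp3, by 0.63. Ly6a (Sca-1), an interferon-responsive surface antigen, was -2.39, at 373 and 221 CPM in members and 547 and 62.0 CPM in CD4 T cells without Foxp3. Ifitm3, an antiviral membrane protein gene, was -2.59, and Bbc3, which encodes the death factor PUMA, -1.15. With CD4 T cells that had a UMI of Ikzf2, Izumo1r, Gpr83 or Il2ra left out as well, the difference was -0.79 for Tnfrsf4, no longer past 2-fold, and -2.34 for Ly6a, while Ctla4 and Rgs1 had too few UMIs to be compared.

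On the other side was Id2, an inhibitor of E-protein factors that effector cells induce, by 1.40, at 231 and 72.0 CPM in members and 221 and 182 CPM in CD4 T cells without Foxp3. Nr3c1 was 1.41 above. Uhrf2, a reader of modified cytosine, was 1.74 above, from 34 and 29 UMIs in members. The class II genes H2-Ab1 and Cd74 were 1.58 and 1.19 above, since they were lower in both kinds of allogeneic T cell but less so in members; H2-Ab1 was at 83.2 and 152 CPM in members and at 3684 and 5645 CPM in B cells, and the part of B cell RNA was not tested. S100a4, a calcium-binding protein gene of effector cells, was 1.49 above, but from 10 allogeneic and 17 syngeneic members, and was 0.16 above once cycling cells were left out.

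**Figure D5:**
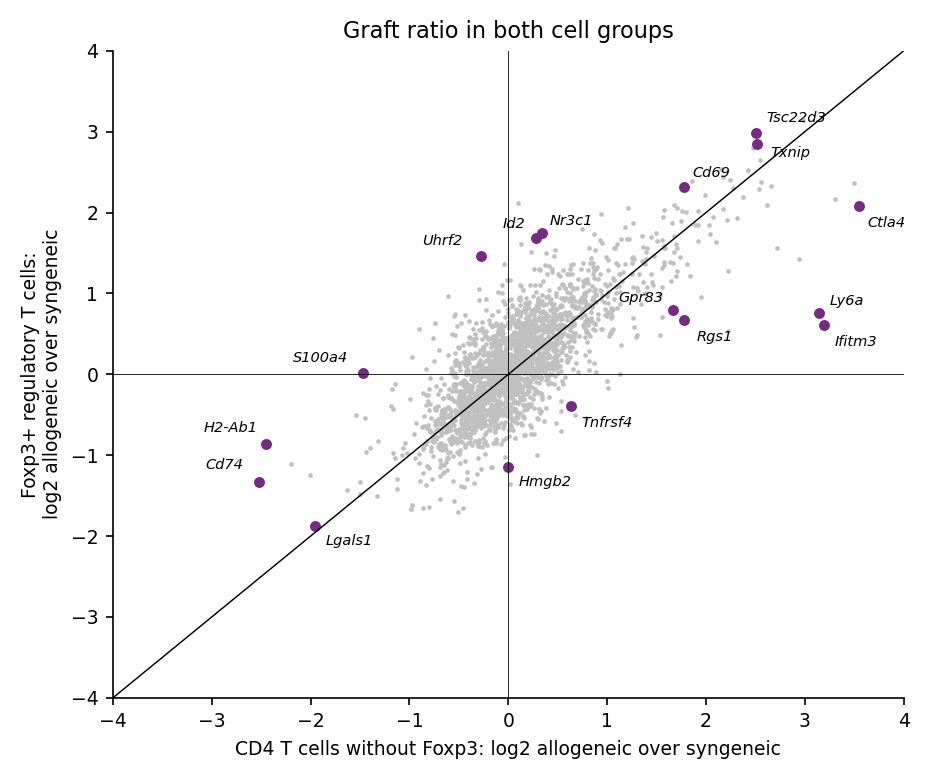
Log2 difference, allogeneic over syngeneic, of 2304 genes in members (vertical axis) against CD4 T cells without Foxp3 (horizontal axis); each point is a gene, the diagonal marks equal differences and 2 genes lie outside the axes. Tsc22d3 and Txnip lie far out near the diagonal, Ctla4, Rgs1 and Ly6a below it, and Nr3c1, Id2 and Uhrf2 above it.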

How the data were processed

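Each library was made, per the labels, from lymph node immune cells with a Chromium single cell 3' v3 kit, and the submitters' processing notes name STAR, Cell Ranger 2.2.0, the build mm10 and Seurat 2.3.4 without their roles; the step that selected barcodes is not stated in the labels. The authors deposited 1 table of raw UMI counts per library, with 27998 gene identifiers of 27933 symbols and its list of barcodes, and these counts were used as deposited. Depth was 8415043 UMIs in 3500 allogeneic barcodes and 46486632 UMIs in 7967 syngeneic barcodes.

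Counts were summed per symbol, barcodes with 200 or more genes and no more than 10% of UMIs from mitochondrial genes were kept, and UMIs were summed over members and over CD4 T cells without Foxp3. Ratios of summed CPM have exact conditional Poisson intervals, levels exact Poisson intervals and shares exact Clopper-Pearson intervals; the difference of 2 log2 ratios has a normal interval on the log scale. All cover counting error only, since UMIs count molecules and not cells or mice. A call is a difference past 2-fold, with a 95% interval that excludes equality, in a gene for which the sums together held 20 UMIs or more. Genes of the rule (Foxp3, Cd3d, Cd3e, Cd3g, Cd4, Cd8a, Cd8b1, Cd79a) stayed out of all counts of calls. Because there was 1 library per group, no p-value was computed. The calculations were checked on simulated data. Thinning drew UMIs at random without replacement to 1000 or 2000 per cell. For shares, ratios and lists the rule was applied again to the thinned counts. Detection of Ctla4 after thinning kept the members chosen on all UMIs. No doublet caller was run: the rule drops cells with Cd8 or Cd79a UMIs, and alternatives leave out the 5% of cells with the most UMIs or the barcodes with more than 5% of UMIs in markers of other lineages. Python 3.11.15, numpy 2.4.6, pandas 2.3.3, scipy 1.17.1 and matplotlib 3.10.9 were used.

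The members and the 18 gene lists, with 304 genes, were chosen with earlier results of these data known. Genes were named by rule: the 4 markers of the label; up to 4 genes of each list with the highest level in members; the 10 highest and 10 lowest allogeneic over syngeneic ratios with at least 50 UMIs and 100 CPM; and the 15 genes highest and 10 lowest against CD4 T cells without Foxp3, ranked by the smaller difference of the 2 libraries, with at least 50 CPM in either group. Named outside this rule, after their values were seen, were Tnfrsf1b, Nrp1, Ikzf4, Maf, Nt5e, Lrrc32, Il10, Klrg1, Tcf7, Lef1, S100a4, Ifit1, Ifit3, Isg15, Irf7, Gbp7, Apobec3, Fkbp5, Klf9, Nr3c1, Dusp1, Socs3, Mki67, Id3, Ifitm3, Bbc3, H2-Ab1, Cd74 and Uhrf2. Of 4 listed interferon genes, Ifi208, Ifi209, Ifi213 and Ifi214, no row was found under these symbols. Some of the genes that the rule names are not reported here.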

Additional observations from a re-analysis of the deposited data

Results flagged for a closer look

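Tnfrsf4 went in opposite directions in the 2 cell groups. Its log2 difference, allogeneic over syngeneic, was -0.39 (-0.68 to -0.12) in members, at 438 and 575 CPM, and 0.63 (0.28 to 0.97) in CD4 T cells without Foxp3, at 95.3 and 61.5 CPM. The difference between these was -1.02, with an interval for counting error of -1.46 to -0.59. Across the alternatives it stayed below 0, with a Cd4 UMI asked for in members it was -0.47 (-1.04 to 0.10), and with CD4 T cells that had regulatory T cell marker UMIs left out it was -0.79 (-1.53 to -0.04). It rests on 1 library per group, and the difference was not tested. Without the barcodes that stood apart it was -1.04.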

How the results depend on the processing

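Over 18 alternatives, 14 of them planned and 4 chosen after seeing the data (barcodes rich in other lineages, cycling cells or the member with the most UMIs left out, and all cells with Cd3 and Foxp3 UMIs as members), the share of members was 4.69% in allogeneic and 1.35% in syngeneic T cells at 1000 UMIs, and 2.86% in syngeneic T cells at 2000 UMIs. It was 3.61% and 2.29% with 2 or more Foxp3 UMIs asked for, and 8.54% and 4.26% of all cells with Cd3 UMIs. With a Cd4 UMI asked for in members, but not in the other T cells, it was 3.37% and 3.07%. The allogeneic share was the higher one each time. Genes past 2-fold between the grafts, 796 in members, were 109 at 1000 UMIs, 257 at 2000 UMIs, 525 with 2 or more Foxp3 UMIs, 517 with a Cd4 UMI and 195 among genes with at least 100 UMIs. Against CD4 T cells without Foxp3 the counts, 407 and 638, were 65 and 146 at 1000 UMIs, 198 and 321 at 2000 UMIs, 73 and 218 with at least 100 UMIs, and in the syngeneic library 1010 with all cells that had Cd3 and Foxp3 UMIs. The 70 genes past 2-fold in the difference of the graft ratios were 37 in cells of at least the lowest syngeneic depth, 2 at 1000 UMIs, 15 at 2000 UMIs, 39 without the cells with the most UMIs, 34 with 2 or more Foxp3 UMIs, 36 with a Cd4 UMI, 3 with at least 100 UMIs, 417 with at least 1 UMI and 46 without cycling cells. Fewer cells, UMIs or genes entered most of these; otherwise the cause was not tested.

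Some medians of lists changed sign, most from reported values near 0; cytotoxic genes were at -1.16 and interferon-gamma genes at 0.42 between the grafts as reported. Between the grafts these were central genes at -0.18 in deep cells, transcription factors at -0.21 and interferon-gamma genes at -0.22 at 1000 UMIs, interferon-gamma genes at -0.13 at 2000 UMIs, homing genes at -0.0685 by the mean over cells and cytotoxic genes at 0.33 with at least 1 UMI. Against CD4 T cells without Foxp3 these were, in the allogeneic library, cell cycle genes at -0.0300 in deep cells, -0.0578 without the cells with the most UMIs, -0.0546 with 2 or more Foxp3 UMIs and -0.0224 without the member with the most UMIs, and interferon-gamma genes at -0.0046 at 1000 UMIs and -0.0464 with all cells that had Cd3 and Foxp3 UMIs. In the syngeneic library homing genes were at -0.12 at 1000 UMIs and -0.0188 with 2 or more Foxp3 UMIs. Of the named genes, Isg15 was -0.12 between the grafts at 2000 UMIs, Hmgb2 0.39 without cycling cells, and Ccl5 0.0077 against syngeneic CD4 T cells with all cells that had Cd3 and Foxp3 UMIs; the cause was not tested. No paired analysis was possible because each group is 1 library and no result comes from a test. Depth limits genes of few UMIs most, as 3 UMIs are 9.24 CPM in allogeneic and 3.93 CPM in syngeneic members.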
